A study of Mus musculus with 38 samples.

Results

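The difference between 2 effects of coronary occlusion was measured in the mouse heart. The first was LAD mice minus sham mice 96 h after surgery, and the second was the same 24 h after surgery. The groups that enter it hold 24 of the 38 mice of the series, and all 21 target assays of the qRT-PCR panel were analysed. Mice that received Myriocin were not used. All mice were male C57BL/6N, 8 to 10 weeks old at surgery. Sham mice (5 at 24 h and 5 at 96 h) went through the operation without ligation of the left anterior descending (LAD) coronary artery. In LAD mice (7 at 24 h and 7 at 96 h) this artery was closed for 30 min and then reopened. Empty solid lipid nanocarriers (SLN) were injected into their hearts, as stated in the methods. RNA of LAD mice came from the at-risk area of the left ventricle, which was found by staining, and RNA of sham mice from heart tissue of the unligated ventricle. LAD and sham therefore differed in the occlusion and the dissected area. The methods do not say whether sham mice were injected. Effects of the occlusion, the dissected area and any difference in injection cannot be told apart. The mice at 24 h and at 96 h were different animals. No date of surgery, extraction or plate is given in the sources used here, so time after surgery and any difference in handling cannot be told apart.

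Reopening of a closed coronary artery injures heart muscle in phases. The heart normally draws most of its energy from the oxidation of fatty acids, and in the days after ischemia the surviving muscle is known to shift its fuel use and to rebuild its contractile proteins. The panel of the study covers this ground. It holds the heavy chains of cardiac myosin (MYH6, MYH7), the PPAR nuclear receptors with their coactivator PPARGC1A, which switch on genes of fatty acid use, and TFEB and SQSTM1 of the autophagy and lysosome pathway. It also holds genes of lipid uptake and of fatty acid transport within the cell (CD36, FABP3, SLC27A1, VLDLR) and of fatty acid entry into mitochondria (CPT1A, CPT1B). The rest are the mitochondrial carrier UCP3, dehydrogenases of fatty acid oxidation (ACADM, ACADL), the lipase LIPE, and perilipins that coat lipid droplets (PLIN2, PLIN4, PLIN5). The deposited values carry plate codes, and no file, label or table used here pairs a code with a gene. The assays are therefore named by their codes, and no assay was assigned to a gene. For the same reason the labelled tissue could not be checked against its markers.

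The only endogenous control named by the study is RPLI, and the reference reading listed with each target was read as RPLI. Its primers, both 5′ to 3′, are shown because every value of relative expression rests on this amplicon.
RPLI forward: ctcggccgttctcctgta
RPLI reverse: gtggaagtggggcttcag
Their genomic position is not given, since no genome was used here.

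Each reading is a threshold cycle (Ct), the amplification cycle in which the SYBR green signal passes a set level, and more transcript gives a lower Ct. Relative expression was the Ct of the reference minus that of the target in the same assay, and 1 unit is 1 cycle, which is a 2-fold change if each cycle doubles the product. All values below are on this log2 scale unless a relative quantity or a Ct is named. Of 504 combinations of assay and mouse, 371 held both readings and 133 were empty. An assay had 3 to 7 mice in a group, and 3 assays (A03, A06 and A11) had 4 or more in every group. The target Ct lay between 14.3 and 35.2 (median 28.4), and that of the reference between 20.9 and 31.8 (median 25.7). How many wells stand behind a Ct is not given in the sources used here. Of 251 distinct reference readings, 54 recurred under different sample numbers. A sample number therefore need not be the same mouse in every assay, and values are compared within an assay. A recurrence under different groups was seen for 1 reading, 26.635. It was listed for sham at 24 h beside B04 and for sham at 96 h beside A06, A07 and A08. Comparison within an assay does not settle its group, and why it recurred was not tested.

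The effect of LAD changed between 24 and 96 h in 11 of the 21 assays (52.4% of those tested) by limma with a Benjamini-Hochberg adjusted p under 0.05. In 9 assays (42.9%) the effect was lower at 96 h than at 24 h, and in 2 assays (9.52%), A03 and B02, it was higher. Over all 21 assays the median difference of effects was -1.06, with 14 assays below 0 and 7 above, and the range was -5.10 in B07 to 1.93 in A03. Without adjustment 12 assays (57.1%) had a p under 0.05. The exact permutation test exchanged time labels within sham and within LAD mice. Its null is thus no change with time in either group, which is narrower than equal effects at both times. By this exact permutation test 10 assays (47.6%) had an unadjusted p under 0.05, and 8 (38.1%) an adjusted one. These 8 are all among the 11, without A11, A08 and B06. The difference of effects equals the change with time in LAD mice minus the change with time in sham mice. In 17 of the 21 assays, and in 10 of the 11 called, the change in LAD mice was the larger in size. The exception among those called was A05. In bulk tissue, fewer cells of a type and less RNA per cell cannot be told apart.

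At the single time points, LAD and sham differed in 4 assays at 24 h (19.0%, limma), A01 upward and A03, B05 and B08 downward, and in 16 assays at 96 h (76.2%), of which 3 were higher and 13 (61.9%) lower in LAD. None of the downward calls at 24 h remained under the other choices of reference given below. The median effect over the 21 assays was -0.32 at 24 h and -1.17 at 96 h. All 11 assays with a called difference were called at 96 h. Of these, 2 (A03 and B08) were also called at 24 h, and 9 passed at 96 h only. Passing at a single time point did not by itself make a difference of effects, since 12 assays were called at 96 h and not at 24 h and in 3 of them (A02, A06 and A09) the difference was not called.

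**Figure D1:**
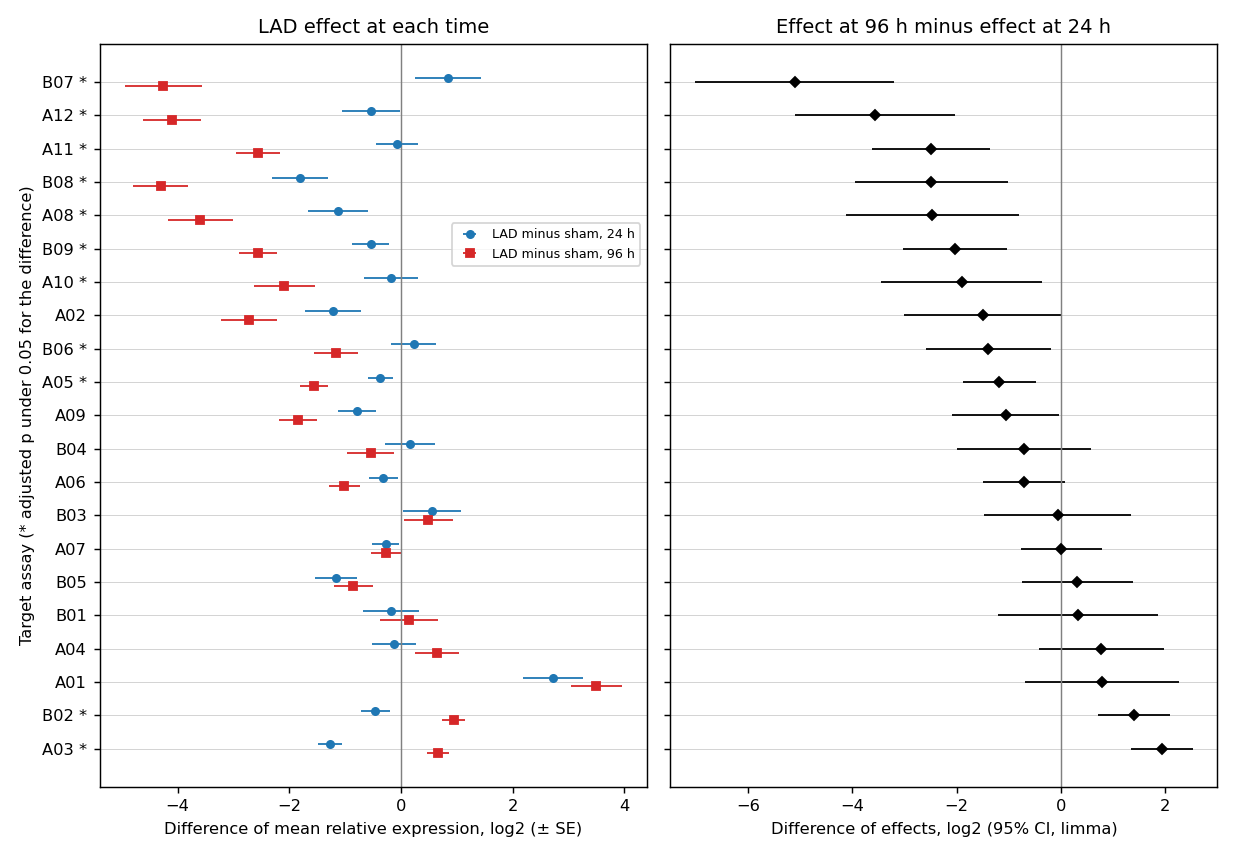
Left, LAD minus sham in mean relative expression (log2, with SE) for each of the 21 target assays at 24 h (circles) and 96 h (squares). Right, the effect at 96 h minus the effect at 24 h with its 95% confidence interval by limma, where a star marks an adjusted p under 0.05. The 9 called assays in the upper part lie between -5.10 and -1.18, and B02 and A03 at the foot lie at 1.40 and 1.93.

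The largest difference was that of B07. In LAD mice at 24 h its relative expression ranged from -7.08 to -4.71 with a median of -5.28 (n = 6), and in the sham mice of that time it was -6.90, -6.48, -6.45 and -6.19. At 96 h the LAD mice were at -12.37, -12.00, -11.35 and -10.46, and the sham mice at -8.84, -7.51 and -5.51. The 2 groups overlapped at 24 h, while at 96 h every LAD mouse lay below every sham mouse. The LAD effect went from 0.84 to -4.26, a difference of -5.10 ± 0.906 (SE, limma, adjusted p = 0.000279). It was smaller and not called with the mean reference Ct of each sample number (-3.56, adjusted p = 0.0796) or with the common level of its target assays as the reference, called targets as reference from here on (-2.58, adjusted p = 0.321). As a relative quantity, which sets the sham mice of the same time near 1, B07 was 2.14 ± 1.19 (SD, n = 6) in LAD mice at 24 h and 0.0595 ± 0.0364 (SD, n = 4) at 96 h. The sham mice of B07 at 96 h had the widest range of any sham group among the 11 called assays. The target Ct of the 4 LAD mice at 96 h was 33.59, 34.11, 34.67 and 35.09, near the highest of the panel (35.2). The remaining LAD mice of that time, out of 7, had no B07 value. With Ct above 35 left out, the B07 difference was -4.83. Whether high Ct or empty combinations otherwise changed the size of the difference was not tested.

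A12 showed a fall in LAD mice beside a sham level that moved little. Its LAD mice at 24 h lay between 6.39 and 7.77 (median 7.10, n = 6) and overlapped the sham mice at 7.35, 7.72 and 7.98. At 96 h the LAD mice lay between 1.75 and 5.02 (median 3.96, n = 6), all below the sham mice at 7.26, 7.91 and 8.07. The sham groups of the 2 times overlapped and differed by 0.06, whereas LAD differed by -3.50 between times. The difference of effects was -3.56 ± 0.732 (SE, limma, adjusted p = 0.000806).

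A11 is the lower assay with the most complete sham groups. The 5 sham mice at 24 h were at 2.66, 2.74, 2.90, 3.00 and 3.37, and the LAD mice of that time ranged from 2.05 to 3.65 with a median of 2.91 (n = 6). At 96 h the sham mice were at 1.81, 1.91, 2.12, 2.63 and 2.84, and the LAD mice at -1.60, -0.45, -0.35, -0.16 and 1.09. The groups overlapped at 24 h and were apart at 96 h. The effect went from -0.07 to -2.56, and their difference was -2.49 ± 0.545 (SE, limma, adjusted p = 0.000827). By the exact permutation test its p was 0.027 and its adjusted p 0.0629, and it was not called with the mean reference (-2.08, adjusted p = 0.222) or with the targets as reference (-1.22, adjusted p = 0.824).

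B08 and A08 were lower in every LAD mouse than in every sham mouse at both times, and the distance grew. For B08 the sham mice were at 3.38, 3.43 and 3.47 at 24 h, and LAD ranged from 0.79 to 2.10 with a median of 1.87 (n = 6). At 96 h its sham mice were at 2.49, 2.55 and 4.21, and LAD ranged from -2.42 to 0.15 with a median of -1.33 (n = 7). The effect of -1.81 at 24 h became -4.30 at 96 h, a difference of -2.49 ± 0.702 (SE, limma, adjusted p = 0.00593). B08 was not called on raw target Ct without a reference (-3.03, adjusted p = 0.122), with the mean reference (-1.11, adjusted p = 0.636) or with the targets as reference (-0.24, adjusted p = 0.956). For A08 the sham mice were at -1.32, -1.28 and -1.25 at 24 h, and LAD ranged from -3.02 to -2.01 with a median of -2.32 (n = 7). At 96 h the A08 sham mice were at -2.41, -2.24 and -1.91, and the LAD mice at -8.07, -5.93, -4.66 and -4.46. The difference for A08 was -2.46 ± 0.792 (SE, limma, adjusted p = 0.0144). With the mean reference Ct of each sample number it was 0.0037 (adjusted p = 0.998), and by the exact permutation test p was 0.0655.

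In B09 and A10 the LAD mice overlapped the sham mice at 24 h and lay apart from them at 96 h. The B09 sham mice were at 2.48, 2.56 and 2.63 at 24 h and at 2.14, 2.35 and 2.61 at 96 h. Its LAD mice ranged from 1.04 to 2.81 (median 2.08, n = 6) at 24 h and were at -0.65, -0.59, -0.24, 0.05 and 0.41 at 96 h. The sham groups of the 2 times overlapped and the LAD groups did not, and the difference of effects was -2.03 ± 0.474 (SE, limma, adjusted p = 0.00167). B09 was not called on raw Ct (-2.35, adjusted p = 0.156), with the mean reference (-0.97, adjusted p = 0.636) or with the targets as reference (-0.068, adjusted p = 0.956). The A10 sham mice were at -4.18, -3.96, -3.74 and -3.73 at 24 h and at -4.19, -4.00 and -3.54 at 96 h, so the sham means were equal within 0.01. Its LAD mice ranged from -5.12 to -3.06 (median -3.96, n = 6) at 24 h and were at -7.86, -6.36, -6.01, -5.14 and -4.60 at 96 h. The A10 difference was -1.90 ± 0.737 (SE, limma, adjusted p = 0.0388). A10 was not called on raw Ct (-2.74, adjusted p = 0.106), with the mean reference (-0.92, adjusted p = 0.636) or with the targets as reference (-0.22, adjusted p = 0.956). It kept its call in 12 of 24 fits that each left out a sample number, over which it ranged from -2.25 to -1.44.

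B06 lay just inside the threshold. Its sham mice were at -1.49, -1.26 and -1.03 at 24 h and at -1.71, -1.39 and -1.26 at 96 h. Its LAD mice were at -1.85, -1.27, -0.91 and -0.12 at 24 h and at -2.96, -2.90, -2.84 and -1.77 at 96 h. The LAD mice enclosed the sham range at 24 h and lay wholly below it at 96 h. The effect was 0.22 at 24 h and -1.17 at 96 h, and the difference was -1.39 ± 0.562 (SE, limma, adjusted p = 0.0497). B06 was called in 5 of the 24 fits without a sample number, where it ranged from -1.68 to -1.09, and its exact permutation p was 0.0643. It was not called on raw Ct (-4.41, adjusted p = 0.122), with the mean reference (-2.05, adjusted p = 0.636) or with the targets as reference (-1.13, adjusted p = 0.956).

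A05 differed from the other 8 in where the change lay. Its sham mice were at -1.62, -1.54, -1.44, -1.44 and -1.02 at 24 h and at -0.60, -0.59 and -0.35 at 96 h, with no overlap. Its LAD mice were at -2.03, -1.997, -1.87, -1.81 and -1.22 at 24 h and ranged from -2.48 to -1.75 (median -1.98, n = 6) at 96 h, so the LAD groups overlapped. LAD and sham overlapped at 24 h, and every LAD mouse lay below every sham mouse at 96 h. The change with time was 0.90 in sham (adjusted p = 0.0507) and -0.28 in LAD. The difference of effects, -1.18 ± 0.337 (SE, limma, adjusted p = 0.00593), was thus made up mostly of the sham term. A05 was called on raw Ct (-3.80). It was not called by limma with the mean reference (-2.12, adjusted p = 0.149) or with the targets as reference (-1.17, adjusted p = 0.824). In the sham mice at 24 h the reference Ct beside A05 averaged 28.96, against 26.4 for the mean reference Ct of that group. From 24 to 96 h it changed by -2.97 in sham, and raw target Ct with the sign turned by 3.87. The sham term of 0.90 was what remained of these changes.

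The 2 assays in the opposite direction, A03 and B02, both had an LAD effect below 0 at 24 h and above 0 at 96 h. In A03 the sham mice at 24 h were at -4.82, -4.69, -4.49 and -4.43, and the LAD mice at -6.07, -6.01, -5.89, -5.79 and -5.61, all below them. At 96 h the A03 sham mice were at -5.46, -5.33, -4.91, -4.64 and -4.56, and LAD ranged from -4.62 to -4.12 with a median of -4.32 (n = 7). The order of the groups thus turned, with the lowest LAD mouse at 96 h inside the sham range. The effect went from -1.27 to 0.66, both called by limma, and the difference was 1.93 ± 0.286 (SE, adjusted p = 2.11e-05), the lowest p of the panel. On raw Ct the A03 difference was 0.45 and not called (limma, adjusted p = 0.354). The difference of effects in the reference Ct beside A03 was 1.48, so most of the 1.93 lay in the reference row. A03 was called with the mean reference (2.58) and with the targets as reference (3.47). The relative quantity of A03 in LAD mice was 0.418 ± 0.0532 (SD, n = 5) at 24 h and 1.59 ± 0.178 (SD, n = 7) at 96 h.

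B02 followed a like course from a weaker start. Its sham mice were at -4.66, -4.62 and -4.59 at 24 h and at -5.54, -5.30, -5.21, -5.17 and -5.13 at 96 h, with no overlap. Its LAD mice were at -5.64, -5.07, -5.05 and -4.57 at 24 h and ranged from -4.58 to -3.92 (median -4.44, n = 7) at 96 h. LAD overlapped sham at 24 h, where the effect of -0.46 was not called, and every LAD mouse lay above every sham mouse at 96 h, where the effect was 0.94. The difference was 1.40 ± 0.330 (SE, limma, adjusted p = 0.00167), to which the sham mice contributed -0.65 and the LAD mice 0.75 of change with time. Both terms were of similar size in this assay. On raw Ct the B02 difference was 0.12 and not called (limma, adjusted p = 0.827). The difference of effects in the reference Ct beside B02 was 1.29, so most of the 1.40 lay in the reference row. B02 was called with the mean reference (2.27) and with the targets as reference (3.13).

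**Figure D2:**
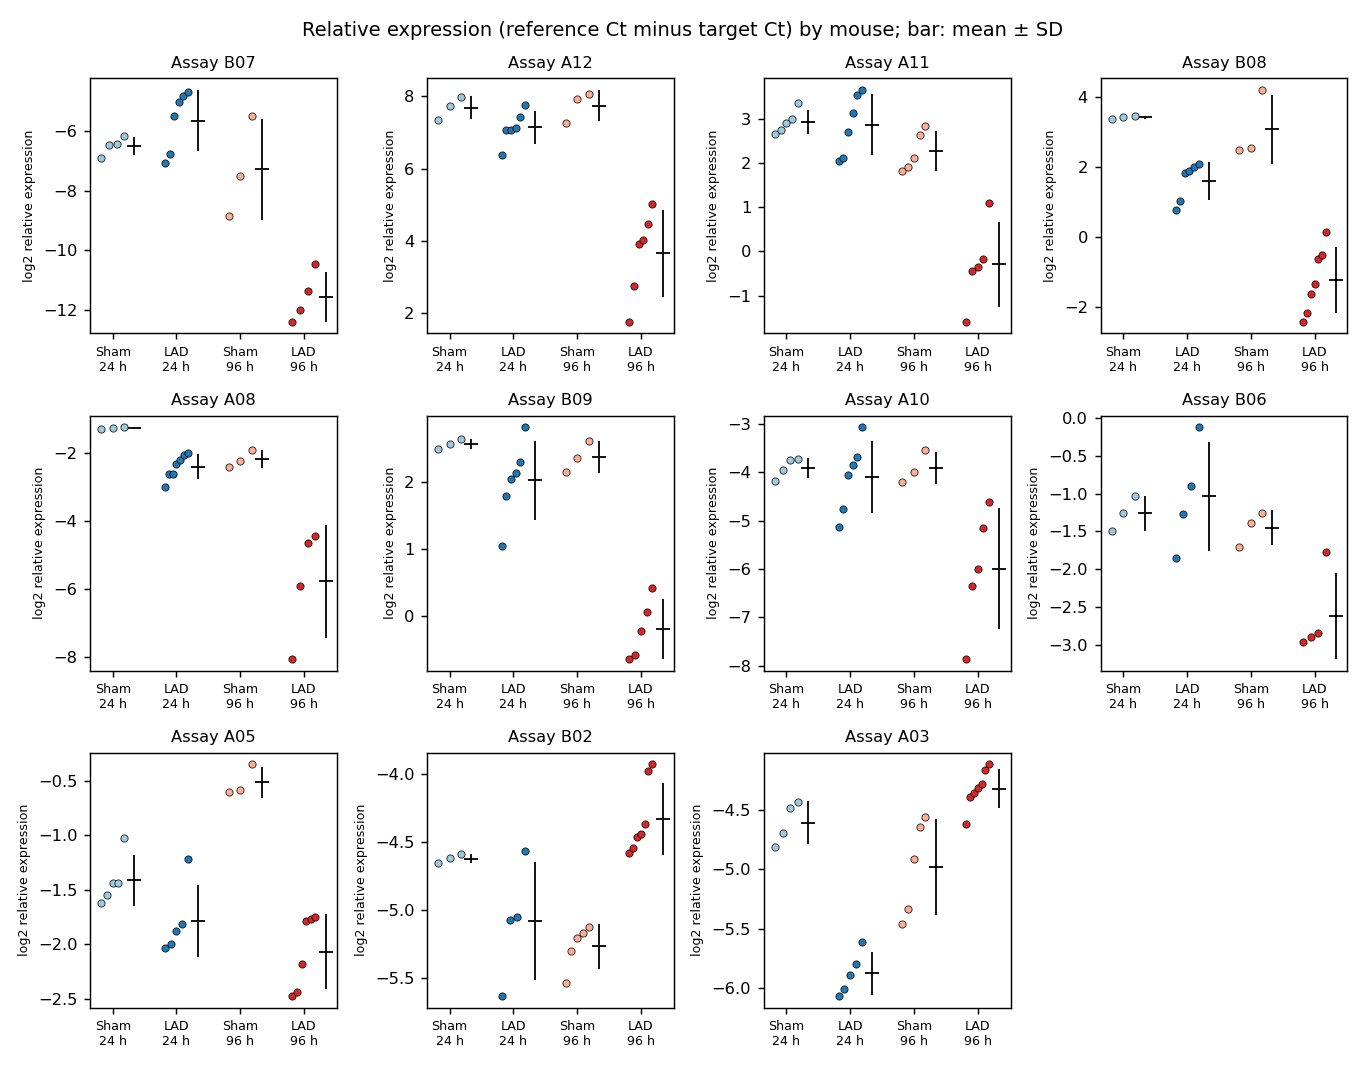
Relative expression (reference Ct minus target Ct, log2) of each mouse in the 11 assays with a called difference of effects, for sham and LAD at 24 and 96 h. Each point is a mouse, and the bar beside a group is its mean with the SD. In B07, A12, A11, B09, A10, B06 and A05 the groups overlap at 24 h and are apart at 96 h, while A03 and B02 move upward in LAD.

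The 2 assays with the next lowest adjusted p lay just outside the threshold. In A09 the sham mice were at -1.46, -0.54 and -0.52 at 24 h and at -1.04, -0.85 and -0.69 at 96 h, and the LAD mice at -2.03, -1.88, -1.58, -1.42 and -1.22 and at -3.29, -3.20, -2.79, -2.29 and -1.95. The A09 difference was -1.06 (95% CI -2.08 to -0.04, limma, adjusted p = 0.0740). In A02, the assay with the highest relative expression, the sham mice were at 11.25, 11.37 and 11.64 at 24 h and at 10.05, 10.19 and 11.34 at 96 h, and the LAD mice at 9.98, 10.12, 10.21 and 10.48 and at 6.58, 7.14, 8.61 and 8.92. The A02 difference was -1.49 (95% CI -3.00 to 0.02, adjusted p = 0.0848). In A02 every LAD mouse lay below every sham mouse at both times.

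In the other 8 assays the difference was not called, and their intervals say how large a change they leave room for. A01 had the largest LAD effect of the panel at 24 h, 2.72, and again a high one at 96 h, 3.50. Its LAD mice were above all sham mice at both times, and the difference was 0.78 (95% CI -0.70 to 2.26). The change with time in A01 was 1.14 in sham, which was not called, and 1.92 in LAD, which was. B05 was lower in LAD by -1.17 at 24 h and -0.85 at 96 h, with a difference of 0.31 (95% CI -0.75 to 1.38). A07 had the same effect, -0.27, at both times, and the interval of its difference was -0.77 to 0.78.

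B03 was 0.56 higher in LAD at 24 h and 0.49 at 96 h, with an interval of -1.48 to 1.35 for the difference. A06 went from -0.32 to -1.02, a difference of -0.70 (95% CI -1.49 to 0.08). A change of sign that did not pass the test was seen in B04, from 0.17 to -0.54, in A04, from -0.13 to 0.65, and in B01, from -0.18 to 0.14. Their intervals were -1.997 to 0.58, -0.42 to 1.97 and -1.22 to 1.86. With B07, B06, A03 and B02, these make 7 assays in which the 2 effects had opposite signs. In 7 of these 8 assays, all but A07, the interval reached beyond 1 unit in size on at least 1 side, so the data do not show that the effects were alike at both times.

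The change with time of the sham mice was examined on its own, because the sham mice are the baseline of each effect. None of the 21 assays (0.00%) passed an adjusted p of 0.05 by limma, 4 (19.0%) had an unadjusted p under 0.05, and 3 (14.3%) did by the exact permutation test (A05, A11 and B02). With 3 sham mice at each time the smallest p this exact test can give is 0.1, and with 3 and 4 mice it is 0.0571. Only A03, A05, A06, A11, B02 and B03 had enough sham mice to pass it. Its count therefore cannot show that sham was stable in the other assays. The sham change was below 0 in 16 assays, with a median of -0.38 and a range of -1.14 (A04) to 1.14 (A01). It lay between -1.003 and -0.65 in B03, A08, A02, B04, B07, B05, A11 and B02, between -0.47 and -0.19 in B01, A03, B08, B09 and B06, between -0.02 and 0.12 in A09, A10, A07, A12 and A06, and at 0.90 in A05. Several of these values rest on a single sham mouse. The change was -0.003 in B07 without sham number 5 at 96 h and -1.67 without number 1, -0.045 in B08 without number 2 and -0.90 without number 4, and -0.058 in B01 without number 3, all at 96 h, and -1.21 in B01 without number 5 at 24 h. In B03 it was -0.66 without number 3 at 96 h. The sham mice of the 2 times did not overlap in 7 assays, 5 lower (23.8%) and 2 higher (9.52%) at 96 h.

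The count for sham depended on how the spread was treated. The median SD over the assays was 0.231 in sham mice and 0.459 in LAD mice at 24 h, and 0.405 and 0.693 at 96 h, and LAD mice at 96 h had the largest SD in 11 assays. The fit above uses 1 spread per assay for all groups. With a weight for each group taken from its median variance, an alternative added after the spread was seen, 10 assays (47.6%) passed for the sham change, A01 and A05 upward and A02, A04, A08, A11, B02, B03, B04 and B05 downward. The A01 sham mice were at -5.55, -5.31 and -5.27 at 24 h and at -4.76, -4.55, -3.93 and -3.73 at 96 h. Those of A04 were at -1.26, -1.06 and -0.52 and then at -2.40, -2.24 and -1.63. Those of B05 were at -2.55, -2.50 and -2.46 and then at -3.67, -3.25 and -2.70. In these 3 assays, and in B04, the sham mice of the 2 times did not overlap. The B04 sham mice were at -2.72, -2.67 and -2.001 at 24 h and at -4.02, -3.17, -3.09 and -3.01 at 96 h. Those of B03 were at -2.57, -2.54 and -2.08 and then at -4.78, -3.88, -3.11, -2.98 and -2.24, and overlapped. The same weights gave 12 assays for the difference of effects, which held all 11 named above and A02. In A04 the sham change of -1.14 was larger in size than the LAD change of -0.37, and in A05, B01 and B05 as well the sham mice changed by more than the LAD mice.

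**Figure D3:**
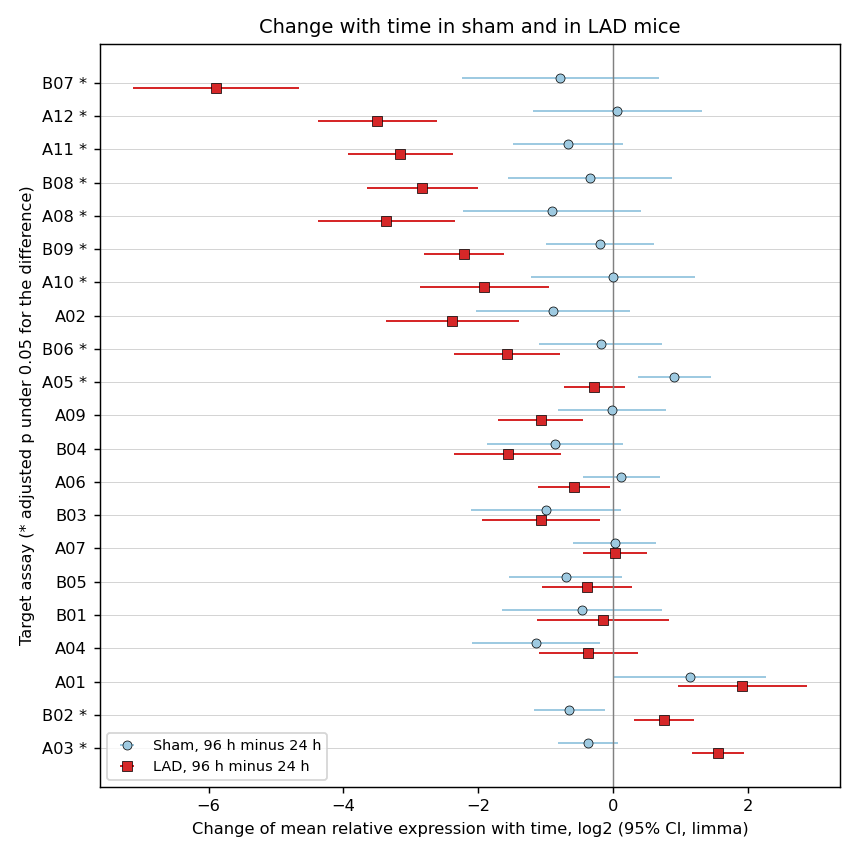
Relative expression at 96 h minus that at 24 h (log2, with 95% confidence interval by limma) in sham mice (circles) and in LAD mice (squares) for the 21 target assays, in order of the difference of effects. LAD changes reach -5.88 in B07 and 1.92 in A01, whereas sham changes stay between -1.14 and 1.14.

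LAD mice changed with time in 16 assays (76.2%, limma), 13 downward (61.9%) and 3 upward (A01, A03 and B02), with a median of -1.08 over the panel. The falls were largest in B07 (-5.88), A12 (-3.50), A08 (-3.37) and A11 (-3.16). No overlap between the LAD mice of the 2 times was seen in 8 assays, 7 lower (33.3%) and 1 higher (4.76%).

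The reference assay moved with time in the opposite way in sham and in LAD mice. Averaged over the assays of a sample number, the reference Ct in sham was 26.4 ± 0.312 (SD, n = 5) at 24 h and 25.0 ± 0.462 (SD, n = 5) at 96 h, a change of -1.45 by the exact permutation test (p = 0.00794, the smallest that this design allows). In LAD it was 25.3 ± 0.203 (SD, n = 7) and 25.8 ± 0.517 (SD, n = 7), a change of 0.52 (exact permutation p = 0.0262). LAD minus sham was thus below 0 at 24 h and above 0 at 96 h, and the difference of the 2 was 1.97 cycles (exact permutation p = 0.000104). Taken assay by assay, this difference was above 0 in 20 of 21 reference rows, with a median of 1.93 and a range of -0.67 beside A08 to 5.76 beside A01. The LAD change was less uniform, above 0 in 14 reference rows and below 0 in 7, with a range of -2.75 to 2.01. Beside the 9 downward assays, the reference Ct of LAD mice was lower at 96 h than at 24 h in 6 rows (B07 by -2.75, A10 by -0.96, A11 by -0.46, A05 by -0.35, B09 by -0.16 and B08 by -0.10) and higher in A12, A08 and B06. A lower reference Ct lowers relative expression, so part of the LAD change of -5.88 in B07 was this -2.75 of its reference row. That row fell in sham mice as well, by -3.00, and its difference of effects was 0.25. The difference of effects of B07 was -5.10 with this row and -5.35 on raw Ct. At 96 h the reference Ct of LAD was above that of sham in 8 of the 9 rows, all but that of A05 (-1.38). Since a sample number need not be the same mouse in every assay, its mean may mix mice. The tests of the mean reference Ct take each sample number as 1 mouse. The part of the reference in the results was not tested beyond the choices of reference given next.

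**Figure D4:**
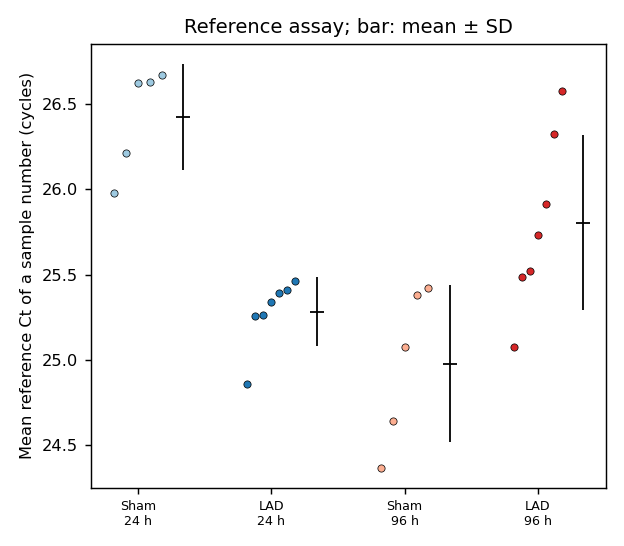
Mean reference Ct of each sample number over its assays (cycles), for sham and LAD at 24 and 96 h, with each point a sample number and the bar beside a group its mean with the SD. Sham falls from 26.4 to 25.0 and LAD rises from 25.3 to 25.8.

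How the target Ct moved without a reference shows the size of this term. On raw target Ct with the sign turned, the median difference of effects was -2.99 and 19 of 21 assays were below 0. By limma 6 assays passed, all downward. These were B07 (-5.35), A12 (-5.49), A11 (-3.91) and A05 (-3.80), which are also among the 11, and A01 and B04, which are not. A03 (0.45, adjusted p = 0.354) and B02 (0.12, adjusted p = 0.827) stayed above 0 and were not called.

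With the mean reference Ct of a sample number in place of the reading beside each assay, 3 assays passed, A03 (2.58, adjusted p = 0.0177) and B02 (2.27, adjusted p = 0.0481) upward and A12 (-3.54, adjusted p = 0.0481) downward. With the common level of the target assays in a sample number as the reference, the median difference was -0.22 and 2 assays passed, A03 (3.47, adjusted p = 0.000686) and B02 (3.13, adjusted p = 0.00894). None of the 9 downward assays passed on that scale, which removes a change that most targets share. Both these choices join readings of a sample number across assays, which may come from different mice. With the mean reference the SE of the difference was larger in every assay, as in B08 (1.45 against 0.702). The estimates moved as well, as in B08 (-1.11 against -2.49). Among the assays that lost their call with the mean reference, the difference was nearer to 0 in A08, A10, A11, B07, B08 and B09. It was further from 0 in A05 and B06. How far the wider error or the moved estimates account for the lost calls was not tested. With the targets as reference, B07 was at -2.58 (limma, adjusted p = 0.321) and A12 at -2.63 (adjusted p = 0.232). The sign of the difference was the same under every choice of reference in 10 of the 11 assays, and also in A09, B03 and B04, which were not called. Some of the kept signs lay near 0, as in B09 (-0.068), A10 (-0.22) and B08 (-0.24) with the targets as reference. Among the 11, A08 was the exception, at 0.0037 with the mean reference and 0.85 with the targets as reference.

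**Figure D5:**
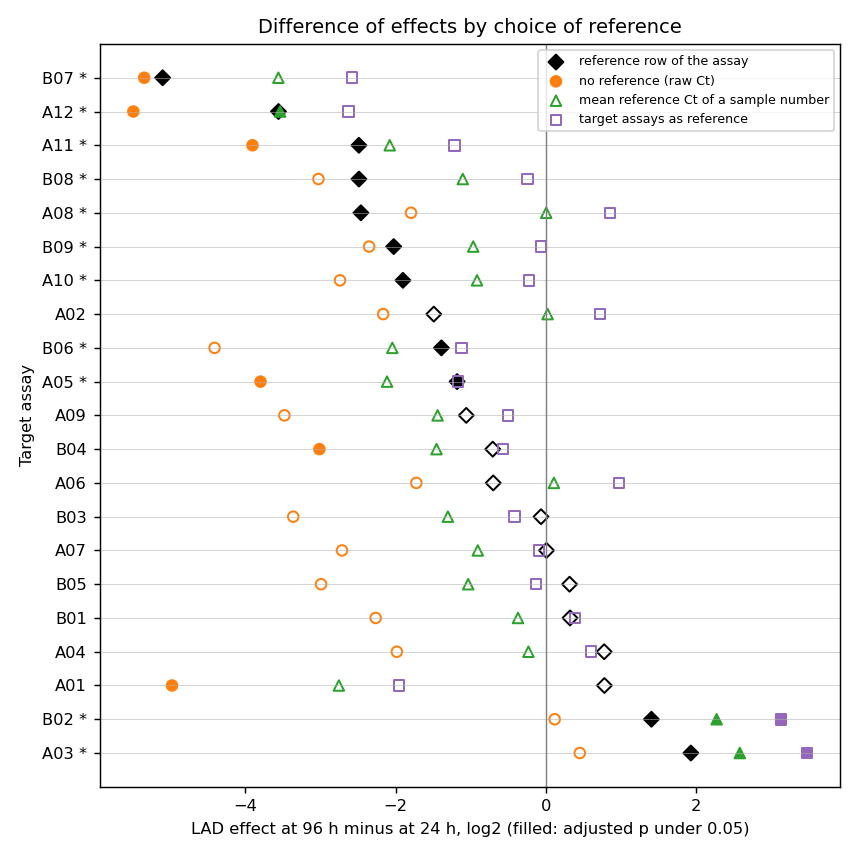
LAD effect at 96 h minus that at 24 h (log2) for the 21 target assays under 4 choices of reference, with filled markers for an adjusted p under 0.05 by limma. A03 and B02 are above 0 under each choice, from 0.45 to 3.47 and from 0.12 to 3.13, and B07 and A12 are below 0 under each choice.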

How the data were processed

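The authors reverse transcribed RNA of each heart, ran SYBR green qRT-PCR and deposited raw Ct values, in cycles and not normalized. A deposited table of fold changes (ratios of group to sham) holds the authors' own comparisons and was not used. Filters, wells per Ct and the reason for empty combinations are not given in the sources used here. No depth applies to Ct values, and the number of mice limits the precision.

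Groups and numbers came from the labels, with columns matched by sample number. Relative expression was the reference Ct listed below a target minus the target Ct. Relative quantity was 2 to the power of relative expression minus the sham mean of the same time. Effects, changes with time and their difference were contrasts of 1 limma fit (lmFit and eBayes, no covariate) over 21 assays and 24 mice, with Benjamini-Hochberg adjustment over 21 assays and a threshold of 0.05. Single values and each assay were also tested by two-sided exact permutation, unadjusted unless stated. The labels do not say more of the replicates than that they are separate mice.

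All 21 assays are named. Values per mouse, or the lowest, median and highest in groups of over 5 mice, are given for those called in the difference of effects and for the 2 next in adjusted p. No assay was called in the sham change, and the sham values of the assays that passed with group weights were added. The members, rules and tests were chosen with earlier results of these data known. Alternatives were all 38 mice in the fit, ordinary least squares, other references, Ct above 35 left out, the replicate block, at least 4 mice in every group, no adjustment, exact permutation and each sample number left out. Group weights were added after seeing the data.

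On simulated data with the real empty combinations, 31.3%, 71.3% and 98% of planted differences of effects of 1, 2 and 4 log2 units were called, and 2.17% of unchanged ones, over 21 assays. In the real data the median SD was 0.231 in sham mice at 24 h and 0.693 in LAD mice at 96 h, and reference readings recurred. Whether these rates hold for the real data was not tested. Software was R 4.3.3 with limma 3.58.1 and Python 3.11.15 with pandas 2.3.3, SciPy 1.17.1, matplotlib 3.10.9 and NumPy 2.4.6.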

Additional observations from a re-analysis of the deposited data

Results flagged for a closer look

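The LAD effects at the 2 times differed by the interaction test of limma in 11 assays. The difference, 96 h minus 24 h on the log2 scale, was 1.93 in A03, 1.40 in B02, -1.18 in A05, -1.39 in B06, -1.90 in A10, -2.03 in B09, -2.46 in A08, -2.49 in A11, -2.49 in B08, -3.56 in A12 and -5.10 in B07.

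A mouse far from the others of its group was seen in 4 of the 55 groups of 4 to 7 mice, where chance gives 2.75. Each is described by the gap to its nearest neighbour divided by the whole range of its group. In A05 the LAD mouse number 4 at 24 h was the highest at -1.22 (ratio 0.731). In B04 the sham mouse number 3 at 96 h was the lowest at -4.02 (ratio 0.842). In B05 the LAD mouse number 4 at 96 h was the lowest at -4.92 (ratio 0.632). In B06 the LAD mouse number 2 at 96 h was the highest at -1.77 (ratio 0.903), and B06 is the called assay nearest to the threshold. For the mean reference Ct, tested in 4 groups, LAD number 1 at 24 h was the lowest at 24.9 cycles (ratio 0.667).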

How the results depend on the processing

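For the difference of effects, 11 assays were called. The count was 12 with all 38 mice, 9 by ordinary least squares, 11 without Ct above 35, 12 with group weights, 12 without adjustment, 10 by exact permutation without adjustment (9 shared) and 8 with adjustment (all shared), and it ranged from 9 to 13 when each sample number was left out. It was 6 on raw Ct, 2 with targets as reference, 3 with the mean reference and 2 of the 3 assays with at least 4 mice in every group. The cause was not tested, except that the last setting tests fewer assays. The replicate block gave 10. Same-numbered mice were different animals. The correlation of their deviations was -0.104 between sham and LAD at 24 h, 0.00387 at 96 h, -0.291 between sham groups and 0.155 between LAD groups. With 5 to 7 pairs each, these values cannot show whether equal numbers shared a surgery or a plate. With the block, the 24 h effect was called in 2 assays, and B03 (0.28), B05 (-0.041) in the difference and A10 (0.47), B06 (0.12) in the sham change turned sign.

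The sham change was called in 0 assays, and in 1 by ordinary least squares, 2 on raw Ct, 1 with targets as reference, 10 with group weights, 4 without adjustment and 3 by exact permutation without adjustment, with 0 to 1 when sample numbers were left out. Most assays had too few sham mice to pass the exact test. The LAD change (16) was 6 on raw Ct, 2 with targets as reference, 5 with the mean reference and 3 of 3 with the mouse filter, and 14 to 16 without single numbers. The 24 h effect (4) was 2, 2, 2 and 1 in these 4 settings, 7 with group weights and 7 without adjustment, and 3 to 5 without single numbers. The 96 h effect (16) was 9, 6, 9 and 3 of 3, and 14 to 16. Directions moved too in the first 3 of these 4 settings. The LAD change was called downward only on raw Ct and with the mean reference, and upward only with targets as reference. The 24 h effect, with 1 upward and 3 downward calls in the main fit, had 2 upward and 0 downward in each, with 1 call shared. The 96 h effect went from 3 upward and 13 downward to 1 and 8, 3 and 3, and 2 and 7. The reference Ct change without single numbers was -1.56 to -1.30 in sham, 0.39 to 0.64 in LAD (not passing in 5 of 24 fits) and 1.82 to 2.09 for the difference.

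On raw Ct the difference turned sign in A01 (-4.98, called), A04 (-1.98), A07 (-2.71), B01 (-2.27) and B05 (-2.99). The sham change turned in A02 (0.51), A03 (0.11), A04 (0.46), A09 (1.32), A10 (1.80), A11 (1.21), B01 (0.92), B02 (0.16), B03 (1.20), B04 (0.79), B05 (1.09), B06 (1.51), B07 (2.22), B08 (0.30) and B09 (0.29). With targets as reference the difference turned in A01 (-1.95), A02 (0.72), A06 (0.97), A07 (-0.092), A08 (0.85) and B05 (-0.13), and the sham change in A06 (-0.66), A09 (0.012), A10 (0.87), A11 (0.15), B01 (0.41), B06 (0.20) and B07 (0.96). With the mean reference the difference turned in A01 (-2.76), A02 (0.022), A04 (-0.23), A06 (0.11), A07 (-0.91), A08 (0.0037), B01 (-0.37) and B05 (-1.04), and the sham change in A06 (-1.04), A07 (-0.33), A10 (0.37) and B07 (0.64).

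Without single sample numbers the difference turned sign in A07 (-0.17 to 0.18), B01 (-0.090 to 1.06) and B03 (-0.41 to 0.22), and the sham change in A06 (-0.055 to 0.29), A07 (-0.15 to 0.20), A09 (-0.33 to 0.14), A10 (-0.19 to 0.13) and A12 (-0.10 to 0.31). Of the 11 called assays, 9 passed in all 24 such fits, A10 in 12 and B06 in 5.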
